A study of Mus musculus with 12 samples.

Results

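The genes described here are 34 members of the amino acid stress response that the transcription factor ATF4 controls, listed by name: Eif2ak3, Eif2ak4, Ppp1r15a, Nupr1, Atf4, Atf3, Atf5, Ddit3, Cebpb, Cebpg, Trib3, Ddit4, Sesn2, Chac1, Eif4ebp1, Asns, Psat1, Phgdh, Psph, Shmt2, Mthfd2, Gpt2, Pck2, Aldh18a1, Pycr1, Cth, Slc7a11, Slc7a5, Slc7a3, Slc3a2, Slc1a5, Slc1a4, Slc38a2 and Xpot. What was measured is open chromatin near them, by ATAC-seq, in which the Tn5 transposase inserts adapters where DNA is accessible. A peak belonged to a member when that gene was the nearest protein-coding gene model within 100 kb. By this rule 93 of the 48443 peaks belonged to 33 of the 34 members, and 90 of these 93 passed the filter on low counts (43726 peaks in all did). The 3 left untested were 1 each of Atf3, Slc7a5 and Slc1a4, at 1.06, 1.93 and 2.51 CPM over all libraries. Peak coordinates are of build mm10. Atf5 had none, because its start lies in a peak that touches Atf5, Il4i1b and Nup62 and was given to Il4i1b. The cells were naive CD4+ T cells (CD44-, CD62L+, CD25-) sorted from spleens of wild-type C57BL/6 mice, whose age the labels do not give. For 68 hours every culture was stimulated through CD3 and CD28 with antibodies on the plate, each at 1 µg/ml, in the presence of TGF-beta1 at 2 ng/ml. IL-6 at 25 ng/ml was added for the cells labelled Th17n, the non-pathogenic kind of Th17 cell, and not for iTreg, the induced regulatory T cells. Each was grown with vehicle or with 100 µM DFMO, difluoromethylornithine, which blocks ornithine decarboxylase, the first enzyme of polyamine synthesis. There were 3 animals in each of the 4 groups, numbered alike across the groups, and 12 libraries. The cells are cultures made in a dish, live-sorted, frozen and thawed before tagmentation.

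As background, the response starts when a kinase phosphorylates the alpha subunit of the initiation factor eIF2. GCN2 (Eif2ak4) does so when uncharged transfer RNAs accumulate, and PERK (Eif2ak3) when proteins misfold in the endoplasmic reticulum. Most translation then slows while the ATF4 message is translated more. ATF4 pairs with C/EBP family proteins on C/EBP-ATF response elements, whose core is written here as TGATGNAA, and drives genes for amino acid transporters, synthesis enzymes and aminoacyl-tRNA synthetases. The same programme induces its own brakes: Trib3, which binds ATF4, and Ppp1r15a (GADD34), which brings a phosphatase to eIF2. Activated T cells have a high demand for amino acids, and the ATF4 programme supports their import and synthesis.

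Promoter sequences matched 29 of the 34 members (RefSeq, build GRCm38.p6), each window running from 250 bases before to 50 bases after an annotated start. Cth, Slc1a5, Slc7a3, Slc7a5 and Eif4ebp1 are named only. The core TGATGNAA, searched on both strands, was in 9 of 32 member windows (28.1%), against 766 of 21263 windows of all genes (3.6%). Those 9 belonged to Asns, Atf3, Chac1, Nupr1, Pck2, Pycr1, Slc1a4, Slc7a11 and Trib3. A match is a run of letters, not a bound site. The members were listed as genes of the ATF4 response, so their higher share adds no support for the list. The cyclic AMP response element TGACGTCA was in 1 member window (Ppp1r15a; 3.12%, against 2.23% of all windows), and the AP-1 motif TGANTCA in 3 (Ddit3, Eif2ak3 and Xpot; 9.38%, against 6.99%). The 200 bases before the start are shown for 3 members whose accessibility at the start fell with DFMO in at least 1 cell type, Pck2 (chr14:55540066-55540265, plus strand), Chac1 (chr2:119351042-119351241, plus strand) and Atf3 (chr1:191183334-191183533, minus strand), and for 3 whose start peak did not pass the test, Asns (chr6:7693210-7693409, minus strand), Pycr1 (chr11:120643749-120643948, minus strand) and Slc7a11 (chr3:50443614-50443813, minus strand). They are written 5′ to 3′ on the gene's strand, and capitals mark the core on either strand.
Pck2: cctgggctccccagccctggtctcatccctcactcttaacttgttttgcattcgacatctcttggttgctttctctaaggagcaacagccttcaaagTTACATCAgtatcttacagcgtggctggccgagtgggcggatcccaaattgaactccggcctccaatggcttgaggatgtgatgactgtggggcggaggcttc
Chac1: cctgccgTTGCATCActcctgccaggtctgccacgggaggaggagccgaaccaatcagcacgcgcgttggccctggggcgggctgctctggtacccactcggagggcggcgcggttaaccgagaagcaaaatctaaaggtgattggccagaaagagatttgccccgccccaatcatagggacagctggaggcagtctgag
Atf3: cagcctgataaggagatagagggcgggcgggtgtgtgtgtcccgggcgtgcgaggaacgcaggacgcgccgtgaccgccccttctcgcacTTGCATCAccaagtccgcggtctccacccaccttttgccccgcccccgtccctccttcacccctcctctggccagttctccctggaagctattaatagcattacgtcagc
Asns: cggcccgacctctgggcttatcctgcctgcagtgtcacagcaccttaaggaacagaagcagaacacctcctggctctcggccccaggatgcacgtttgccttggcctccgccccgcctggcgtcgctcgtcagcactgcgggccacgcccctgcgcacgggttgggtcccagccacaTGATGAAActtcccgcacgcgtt
Pycr1: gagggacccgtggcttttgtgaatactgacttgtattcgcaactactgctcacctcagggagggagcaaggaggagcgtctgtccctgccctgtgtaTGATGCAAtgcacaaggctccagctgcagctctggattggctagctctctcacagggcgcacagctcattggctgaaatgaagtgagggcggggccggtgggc
Slc7a11: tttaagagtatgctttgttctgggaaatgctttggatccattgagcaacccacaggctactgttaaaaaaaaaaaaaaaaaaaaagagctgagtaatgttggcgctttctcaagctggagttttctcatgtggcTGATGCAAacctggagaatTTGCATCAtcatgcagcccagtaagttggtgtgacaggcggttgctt
The match begins 103 bases before the start in both Pck2 and Pycr1, 193 in Chac1, 110 in Atf3 and 23 in Asns, and Slc7a11 holds a pair, 66 and 47 bases before. The Pck2 and Pycr1 matches differ in strand and bases, with TTACATCA, the core read on the other strand, in Pck2 and TGATGCAA in Pycr1. The part of a match's position or strand in the changes was not tested.

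Counts per library ranged from 1020937 to 6496550 over all peaks, and levels are given as CPM, a peak's share of the library's total count on the usual CPM scale. The labels were checked against marker genes. The gene-end peak of Il17a, the Th17 cytokine, was at 22.9 CPM in Th17n vehicle and 0.826 in iTreg vehicle (log2 difference 4.36, adjusted p = 1.4e-10). The single peak assigned to Foxp3, the regulatory T cell factor, lies inside the gene and was higher in Th17n (16.1 against 4.27 CPM; 1.65, adjusted p = 0.00049), which goes against the iTreg label. Over the marker lists with vehicle, 17 of 24 tested Th17 marker peaks were higher in Th17n and 4 lower, and 8 of 41 regulatory T cell marker peaks were higher in Th17n and 12 lower. All 6 T cell markers had peaks, whose summed CPM was 498 to 505 in Th17n vehicle, 413 to 447 in Th17n with DFMO, 394 to 412 in iTreg vehicle and 348 to 455 in iTreg with DFMO. Of the 6 CD8 T and NK markers 2 had peaks, with Cd8a, Ncr1, Gzma and Nkg7 having none, and their sum ran from 94.6 to 107, 84.6 to 128, 93.6 to 114 and 129 to 137 in the same order. Of the 5 B cell markers, Pax5 alone had peaks (18.6 to 26.4, 27.7 to 37.8, 30.7 to 50.3 and 30.8 to 38.0). Myeloid marker peaks summed to 79.3 to 105, 73.8 to 99.0, 62.1 to 82.9 and 71.6 to 77.1. The B cell sum in Th17n and the CD8 and NK sum in iTreg thus lay above the vehicle range in every DFMO library, and their part in the results below was not tested. In these bulk libraries, a region open in fewer cells and a region less open in each cell cannot be told apart.

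The 93 member peaks lay at a gene end, meaning within 1 kb of either end of the gene model, in 29 cases, inside the gene in 18 and outside it in 46. By role, 14 belonged to the kinases and their control, 22 to transcription factors, 13 to feedback and stress effectors, 20 to synthesis enzymes, 23 to transporters and 1 to Xpot, which exports transfer RNA from the nucleus. The 14 include 3 of Nupr1, a stress-induced nuclear protein that was listed with the kinases but is not one. Cebpb had the most, 12, and Atf3, Ddit4 and Slc38a2 had 6 each. Per kb of peak, the strongest gene-end peaks averaged over all libraries were those of Xpot (108 CPM per kb), Slc1a4 (105), Slc3a2 (96.8, at small nucleolar RNA genes) and Sesn2 (92.5). The lowest were at Atf4 itself (21.6), Asns (26.8) and Nupr1 (28.2). Atf4 thus had the lowest such level of the 27 members with a gene-end peak. However, its peak lies 784 bp from the annotated start and does not cover it.

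In Th17n, accessibility was lower with DFMO at peaks of 7 members and higher at peaks of 3. Of 90 member peaks, 10 were lower and 3 higher at an adjusted p under 0.05 (11.1% and 3.33%), where 4.28% of all peaks were lower and 4.5% higher. Losses that held under every alternative and left-out library were at Cth, the gene of the enzyme that makes cysteine from cystathionine, and around Ddit4, which encodes REDD1, an inhibitor of the growth kinase mTORC1. The rises were at the gene end of Slc7a5 and outside Slc1a4, both amino acid transporters, and near Nupr1, a small stress-induced nuclear protein. The median change over the member peaks was -0.04 (log2), against 0.01 over all peaks. Unadjusted p under 0.05 held for 6 higher and 17 lower peaks. With all libraries thinned to the smallest depth the counts were 6 lower and 2 higher. The count of lower peaks was 6 without vehicle library 2, 5 without vehicle library 3, 6 without DFMO library 1 and 6 without DFMO library 3, and that of higher peaks was 1, 0, 1 and 1 without vehicle libraries 1 and 2 and DFMO libraries 1 and 3. Of the 10 lower member peaks, 2 lay at gene ends, 1 inside a gene and 7 outside. For these refits the share over all genes was counted at gene-end peaks alone, where calls fell too. Lower ones made 2.05% with all libraries, 1.49% when thinned, and 1.15%, 1.16%, 1.27% and 1.48% without those libraries in that order. Higher ones made 4.44% with all libraries, 2.44% when thinned, and 1.8%, 1.86%, 1.09% and 1.72%.

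Among the kinases and their control, 1 of 14 peaks fell and 1, near Nupr1 and described further on, rose in Th17n. The peak that fell lies 13047 bp outside Eif2ak3 (chr6:70830667-70831437), at 15.7, 12.8 and 17.9 CPM with vehicle and 7.47, 6.06 and 6.51 with DFMO (-1.15 ± 0.37 (SE), adjusted p = 0.036). The groups did not overlap, but the call was lost when thinned (adjusted p = 0.087) and without vehicle library 2 (0.058), vehicle library 3 (0.16), or DFMO library 1 (0.077), 2 (0.10) or 3 (0.080). The gene-end peak of Eif2ak4 held 59.6 ± 3.53 and 61.3 ± 8.19 CPM (SD, n = 3; adjusted p = 0.86). For Ppp1r15a it was 46.2 ± 8.34 and 47.6 ± 13.2 (adjusted p = 0.67).

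Of 21 tested peaks of the transcription factors, 1 fell in Th17n, 7434 bp outside Cebpb (chr2:167697866-167698355), a C/EBP partner of ATF4. Its libraries held 28.4, 23.6 and 23.8 CPM with vehicle and 13.0, 11.7 and 10.4 with DFMO (-1.03 ± 0.27, adjusted p = 0.0094; 0.095 when thinned). Every DFMO library was below every vehicle library there. At the Cebpb gene end the values were 83.4 ± 18.9 and 78.9 ± 11.4 CPM (adjusted p = 0.89). The Atf4 gene-end peak held 10.3 ± 0.755 and 8.81 ± 0.820 CPM (-0.18 ± 0.35, adjusted p = 0.82), with the lowest vehicle library (9.40) below the highest DFMO library (9.75). The gene-end peaks of Atf3, a repressor induced by ATF4, Ddit3, which encodes CHOP, and Cebpg, another partner, did not pass either (adjusted p = 0.77, 0.25 and 0.63).

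Feedback and stress effectors had 4 lower peaks of 13 in Th17n and 0 higher (1 at an unadjusted p under 0.05, 0 by DESeq2), with a median change of -0.56. All 4 belonged to Ddit4. Ddit4 had 6 peaks, none at its gene end, and every one of them had a lower mean with DFMO. The peak 4.16 kb downstream of the start, past the gene's far end (chr10:59947302-59947925), held 41.1, 41.7 and 58.1 CPM with vehicle and 18.2, 23.4 and 24.7 with DFMO (-1.10 ± 0.25, adjusted p = 0.0029). The peak 13.1 kb upstream (chr10:59964421-59965305) held 37.2, 34.3 and 35.5 and 18.5, 14.7 and 15.0 (-1.10 ± 0.26, adjusted p = 0.004). Both calls held under every alternative tried and without any single library. The peak 19.0 kb downstream (chr10:59932594-59932868) held 14.7, 12 and 12.6 and 2.60, 5.19 and 1.30 (-1.99 ± 0.53, adjusted p = 0.0096; 0.064 without DFMO library 1). The peak 2.06 kb upstream (chr10:59953536-59954119) held 29.4, 22.6 and 26.1 and 13.6, 13.8 and 13.0 (-0.88 ± 0.28, adjusted p = 0.035). At all 4 of these peaks every DFMO library was below every vehicle library. The peaks were picked by the test on these same libraries, so this adds no support of its own. Leaving out any of the 6 libraries lost the last call (vehicle 1, 2 and 3: 0.058, 0.055 and 0.097, DFMO 1, 2 and 3: 0.091, 0.067 and 0.077). The peaks 15.3 and 12.9 kb downstream did not pass (-0.47, adjusted p = 0.31, and -0.94, adjusted p = 0.14).

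**Figure D1:**
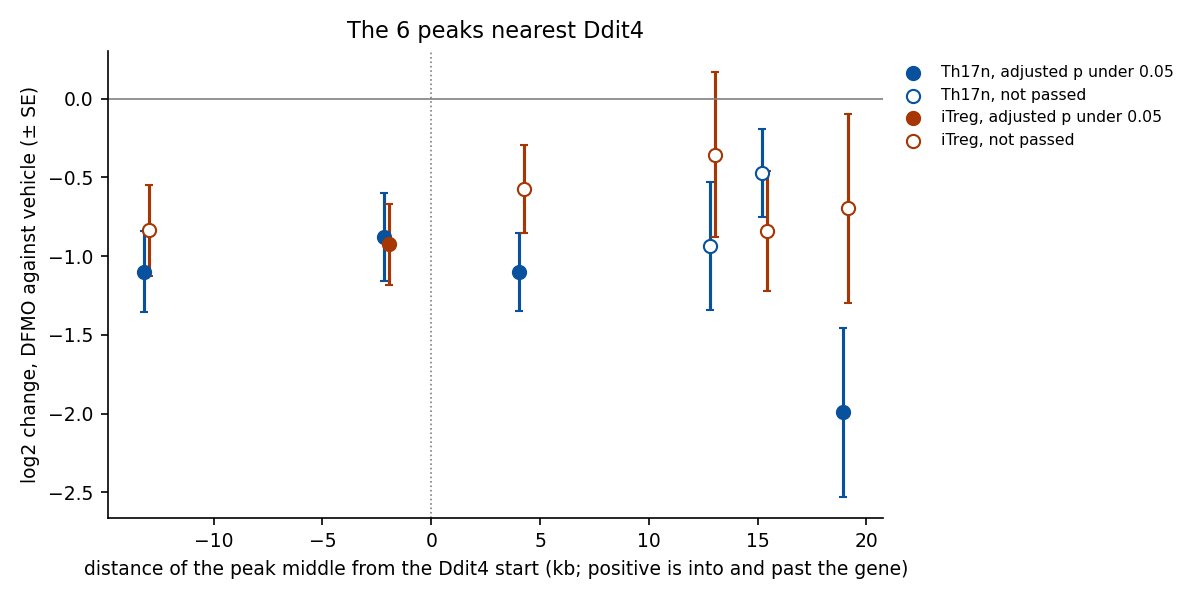
Log2 change with DFMO against vehicle (y axis) of the 6 Ddit4 peaks, by distance of the peak's middle from the Ddit4 start in kb (x axis; positive is into and past the gene). Bars are standard errors, colours separate Th17n and iTreg, and filled points passed the test. All 12 changes are below 0, with 4 filled in Th17n and 1, at 2.06 kb upstream, in iTreg.

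Synthesis enzymes had 3 lower peaks of 20 in Th17n and 0 higher (0 at an unadjusted p under 0.05, 0 by DESeq2). At the Cth gene end (chr3:157924623-157925378) the libraries held 55.8, 46.2 and 42.9 CPM with vehicle and 14.0, 19.9 and 13.7 with DFMO (-1.54 ± 0.24, adjusted p = 1.5e-05). This was the smallest adjusted p of the member peaks in either DFMO comparison, and the highest under any alternative or left-out library was 0.00077. At the Pck2 gene end (chr14:55539996-55540894), which encodes mitochondrial phosphoenolpyruvate carboxykinase, they held 38.2, 31.7 and 38.8 and 17.2, 21.2 and 21.5 (-0.83 ± 0.22, adjusted p = 0.012). The groups did not overlap, but that call was lost when thinned (adjusted p = 0.083), without vehicle library 3 (0.062) and without DFMO library 1 (0.075). A peak inside Mthfd2, the mitochondrial folate dehydrogenase (chr6:83311966-83312855), held 31.3, 28.9 and 27.9 and 19.8, 19.5 and 6.51 (-0.82 ± 0.26, adjusted p = 0.036). It was lowest in DFMO library 3, without which the adjusted p was 0.19. It was also lost without vehicle libraries 1 (0.053), 2 (0.10) and 3 (0.076), and when thinned (0.15). The serine synthesis genes did not pass at their gene ends. Phgdh, the first enzyme, held 31.1 ± 4.68 and 37.3 ± 1.59 CPM (adjusted p = 0.39), and Psat1, the aminotransferase after it, 65.1 ± 15.8 and 75.0 ± 5.14 (adjusted p = 0.55). Asns, the asparagine synthetase and a classic ATF4 target, held 23.7 ± 1.96 and 25.2 ± 2.45 CPM (0.09 ± 0.24, adjusted p = 0.87).

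Transporters had 2 higher peaks and 1 lower of 21 in Th17n. The gene-end peak of Slc7a5 (chr8:121906581-121908235), the light chain of the large neutral amino acid transporter LAT1, held 66.6, 61.6 and 77.2 CPM with vehicle and 99.4, 80.9 and 112 with DFMO (0.53 ± 0.14, adjusted p = 0.01). The groups did not overlap, but the call was lost without vehicle library 1 (adjusted p = 0.058), vehicle library 2 (0.15), DFMO library 1 (0.10) and DFMO library 3 (0.12). The heavy chain gene, Slc3a2, did not pass at its strongest gene-end peak (61.2 ± 11.6 and 75.9 ± 6.49 CPM, adjusted p = 0.099). A peak 67349 bp outside Slc38a2 (chr15:96767077-96767590), which encodes the glutamine and alanine carrier SNAT2, held 24.5, 30.9 and 26.4 and 9.42, 14.3 and 13.0 (-1.17 ± 0.37, adjusted p = 0.035). DESeq2 gave it an adjusted p of 0.32, and it was lost without vehicle libraries 2 (0.16) and 3 (0.086) and DFMO libraries 1 (0.16) and 3 (0.067). The third and largest transporter change, near Slc1a4, is described with the differences between the cell types. Xpot held 106 ± 23.2 and 100.5 ± 12.8 CPM (adjusted p = 0.99).

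In iTreg, 8 of 90 member peaks were lower with DFMO (8.89%) and 0 higher, where 4.72% of all peaks were lower and 3.84% higher. The lower peaks lay at the starts of Pck2, Atf3 and Chac1, at the gene end of Cth, near Trib3, Ddit4 and Atf3, and inside Slc7a5. For the 0 that rose, 6 peaks had an unadjusted p under 0.05 and a higher value, and DESeq2 also called 0 higher and 8 lower. Leaving out vehicle library 1 gave 1 higher peak and leaving out DFMO library 2 gave 3, while the count of lower peaks was 5 without vehicle library 3 and 4 when thinned. Of all gene-end peaks, 3.76% and 3.82% were higher in the first 2 of these fits. In the last 2, 1.39% and 1.54% of all gene-end peaks were lower. The share over peaks at all places was not counted in these fits. The median change was -0.16, against -0.01 over all peaks. Gene ends carried 4 of the 8 calls, among 29 tested, where 3.63% of all gene-end peaks were lower.

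Of 14 peaks of the kinases and their control, 0 passed in iTreg by edgeR, 0 had an unadjusted p under 0.05 and DESeq2 called 0. Among the transcription factors, 2 of 21 peaks fell, both at Atf3. The Atf3 start peak (chr1:191182548-191183867) held 60.9, 73.3 and 71.0 CPM with vehicle and 34.6, 45.1 and 34.3 with DFMO (-0.84 ± 0.16, adjusted p = 0.00057), and the call held under every alternative and left-out library. In Th17n the same peak held 69.5, 70.8 and 54.6 and 61.1, 64.0 and 52.1 (-0.10 ± 0.16), with the groups overlapping. The difference between the cell types in this change was 0.75 ± 0.23 (adjusted p = 0.085) and did not pass. The peak 6587 bp outside Atf3 (chr1:191189920-191190336) held 4.09, 11 and 15.0 and 4.70, 5.22 and 2.64 (-1.42 ± 0.40, adjusted p = 0.014). Here vehicle library 1 lay below 2 of the DFMO libraries. The call was lost when thinned (0.32), with the other cell type left out of the fit (0.067), without vehicle library 3 (0.17) and without DFMO library 3 (0.16). Atf4 held 12.6 ± 2.13 and 8.04 ± 2.97 CPM at its gene end (-0.67 ± 0.35, adjusted p = 0.24).

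Of the feedback and stress effectors, 3 of 13 peaks fell in iTreg and 0 rose (0 at an unadjusted p under 0.05, 0 by DESeq2), with a median change of -0.58. Chac1 encodes a gamma-glutamyl cyclotransferase that degrades glutathione, and its start peak (chr2:119350475-119351572) held 82.3, 60.8 and 72.8 CPM with vehicle and 34, 48.9 and 36.6 with DFMO (-0.82 ± 0.17, adjusted p = 0.0015). In Th17n it held 40.2, 45.7 and 51.7 and 33.5, 28.1 and 35.2 (-0.52 ± 0.19, adjusted p = 0.069). The groups did not overlap in either cell type, and the iTreg change passed the test. The peak 5857 bp outside Trib3 (chr2:152349917-152350314) fell from 6.14, 12.9 and 10.3 CPM to 0, 1.90 and 1.76 in iTreg (-2.84 ± 0.62, adjusted p = 0.00059). The library at 0 had no count, which allows up to 1.76 CPM (3 counts, counting error only). In Th17n, where its level was low with vehicle too, it held 2.94, 7.23 and 5.58 and 1.95, 3.03 and 1.95 (-1.30 ± 0.56, adjusted p = 0.13). The Trib3 gene-end peak did not pass in iTreg (104 ± 15.0 and 82.0 ± 17.1 CPM, adjusted p = 0.1) or in Th17n (105 ± 12.3 and 86.2 ± 2.46, adjusted p = 0.3). Of the 6 Ddit4 peaks the one 2.06 kb upstream passed in iTreg, at 32.7, 35.3 and 31.9 and 18.2, 25.6 and 9.96 CPM (-0.92 ± 0.26, adjusted p = 0.017). That call was lost when thinned (0.096), without vehicle libraries 2 (0.083) and 3 (0.053), and without DFMO library 3 (0.25), which was the lowest of the 6. The other 5 Ddit4 changes in iTreg ran from -0.84 to -0.36 and did not pass, and a difference in the change between the cell types passed at 0 of the 6 by edgeR and DESeq2 (lowest adjusted p = 0.49). Sesn2, a leucine-binding inhibitor of mTORC1 signalling, held 154 ± 29.9 and 140.4 ± 22.8 at its gene end (adjusted p = 0.62).

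Summed over the 13 effector peaks, libraries held 554 to 577 CPM in Th17n vehicle and 450.4 to 477 with DFMO, and 516 to 600.0 in iTreg vehicle and 427 to 465 with DFMO. Neither cell type's ranges overlapped. How often sets of peaks from the whole table separate in this way was not counted, here or for the lists below. The effectors did not move alike in Th17n. Every Ddit4 peak had a lower mean with DFMO, while both Sesn2 peaks had a higher one (134.9 and 150.4 CPM, and 44.8 and 59.7). The summed CPM of the Th17 marker peaks was also lower with DFMO, from 516 to 570.1 down to 357 to 424 in Th17n and from 201 to 254 down to 127 to 185 in iTreg, and so did that of the regulatory T cell markers, from 1235 to 1327 down to 977 to 1054 and from 1218 to 1295 down to 903 to 1123. The T cell marker sum given above also lay below its vehicle range in Th17n. The part of these markers in the effector values was not tested. The other role groups overlapped between vehicle and DFMO in both cell types, for example 726 to 796 and 742 to 849 CPM for the transporters of Th17n. Of the lists of other genes counted further on, the stress-responsive genes were also lower without overlap. They held 2046 to 2217 and 1908 to 1947 in Th17n, and 2199 to 2375 and 2007 to 2065 in iTreg. Genes of eIF2 and its control were higher without overlap (889 to 937 and 1070 to 1098, and 998 to 1092 and 1123 to 1217). The remaining lists of this kind overlapped.

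Synthesis enzymes had 2 lower peaks of 20 in iTreg and transporters 1 of 21, inside Slc7a5. The Pck2 start peak fell from 51.7, 50.9 and 52.2 CPM to 17.0, 29.9 and 20.5 (-1.17 ± 0.21, adjusted p = 0.00019). Its 3 vehicle libraries agreed closely, all DFMO libraries were far below them, and the call held under every alternative and left-out library. At the Cth gene end the values were 35.8, 52.0 and 39.6 and 22.3, 34.6 and 21.1 (-0.72 ± 0.22, adjusted p = 0.028). There the groups did not overlap, but the call was lost when thinned (0.35), with Th17n left out of the fit (0.054), and without vehicle libraries 2 (0.23) and 3 (0.059) or DFMO libraries 1 (0.11) and 3 (0.21). The decrease at Cth was -1.54 ± 0.24 in Th17n, and the difference between the cell types (-0.83 ± 0.32, adjusted p = 0.2) did not pass. Asns held 25.7 ± 1.88 and 22.2 ± 5.11 CPM in iTreg (adjusted p = 0.73), Phgdh 44.7 ± 4.26 and 49.8 ± 9.25 (adjusted p = 0.6), and Shmt2, the mitochondrial serine hydroxymethyltransferase, 30.9 ± 2.88 and 37.2 ± 5.84 (adjusted p = 0.49).

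**Figure D2:**
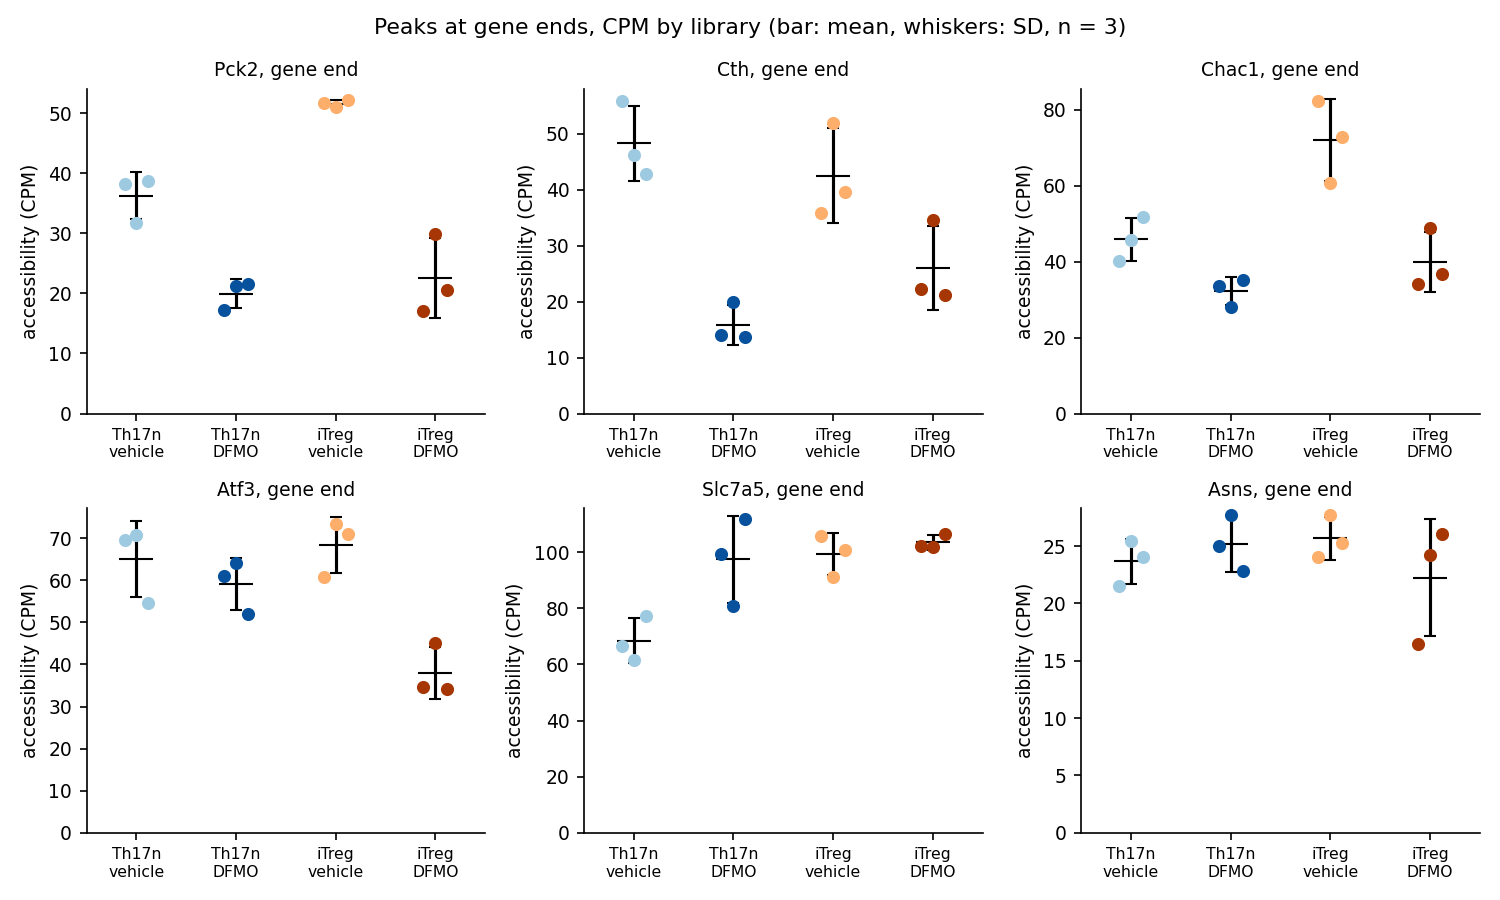
Accessibility in CPM (y axis, from 0) at the gene-end peaks of Pck2, Cth, Chac1, Atf3, Slc7a5 and Asns, with 1 panel a peak, 1 point a library and bars for the group mean and SD (n = 3), in Th17n and iTreg with vehicle and DFMO. The Pck2 points of iTreg drop from 50.9 to 52.2 with vehicle to 17.0 to 29.9 with DFMO, and the Cth points of Th17n from 42.9 to 55.8 down to 13.7 to 19.9.

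The peaks called lower in both cell types were those of Cth, Ddit4 (2.06 kb upstream) and Pck2, 3 of the 10 in Th17n and 3 of the 8 in iTreg (30% and 37.5%). Over all peaks, 399 were called lower in both, 21.3% of those in Th17n and 19.3% of those in iTreg. In all, 18 peaks of 13 members were called in at least 1 cell type, and 15 of the 18 changes had the same sign in both (83.3%), near the 76.4% of the 6796 peaks called in either over the whole table. Among the peaks that cover a member's start, 8 belong to windows with the TGATGNAA core and 15 to windows without it. With the core, 1 of 8 was lower in Th17n (Pck2; median -0.07) and 3 of 8 in iTreg (Pck2, Atf3 and Chac1; median -0.26). Without it, 0 of 15 were lower in either (medians 0.14 and -0.02), where 0 in Th17n and 1 in iTreg had an unadjusted p under 0.05 and DESeq2 called 0. Over all genes, the members included, 2 of 210 tested start peaks with the core were lower in Th17n (0.952%) and 12 in iTreg (5.71%). The member calls are thus among them. Of the 8211 without the core, 1.77% and 3.15% were lower.

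**Figure D3:**
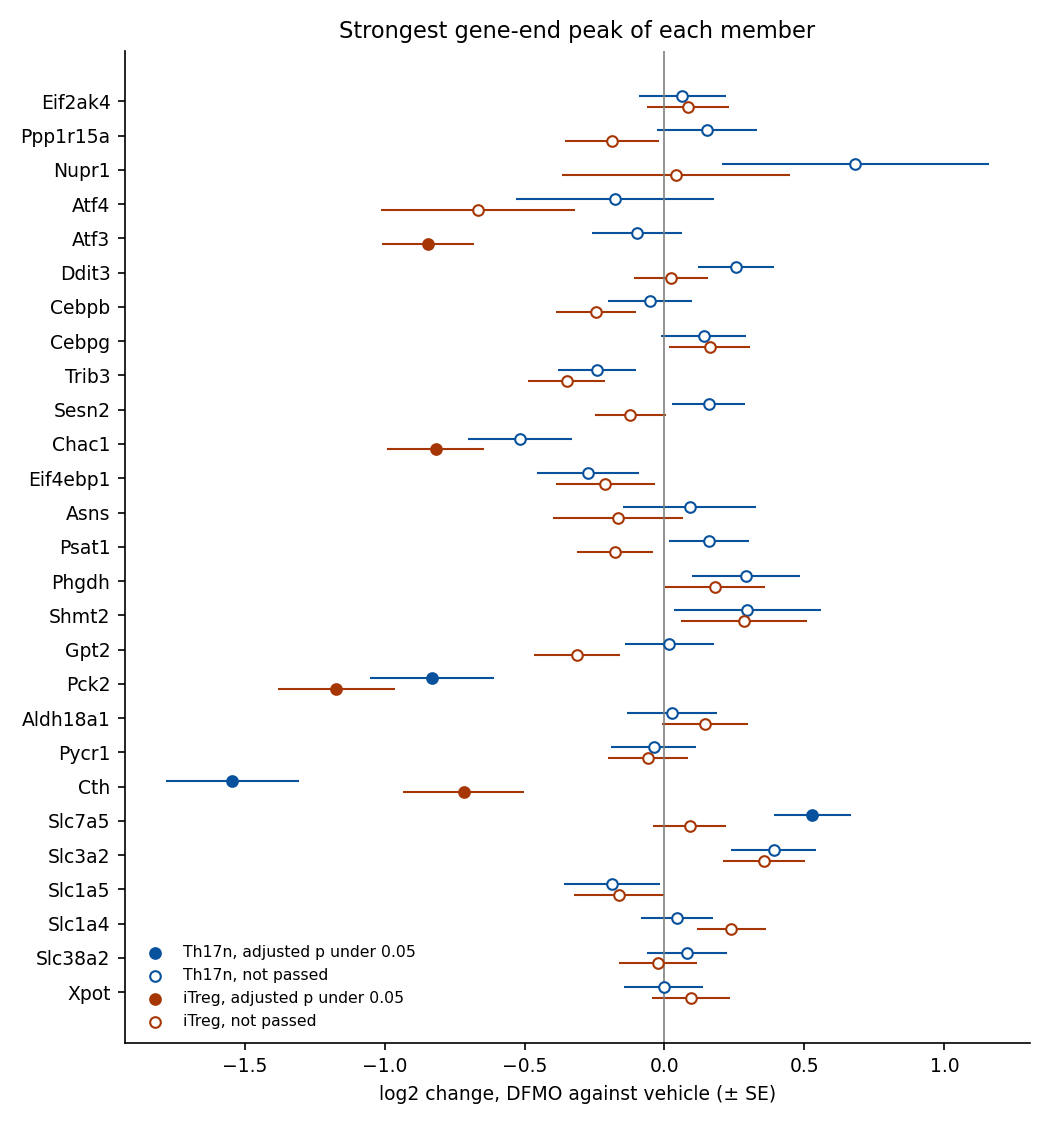
Log2 change with DFMO against vehicle (x axis, with standard errors) at the strongest gene-end peak of each of the 27 members that have one (y axis), in Th17n and iTreg. Filled points passed the test, 3 in Th17n (Cth and Pck2 lower, Slc7a5 higher) and 4 in iTreg (Cth, Pck2, Chac1 and Atf3 lower).

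Over all genes, 2.05% of gene-end peaks were lower and 4.44% higher in Th17n, and 3.63% were lower and 3.68% higher in iTreg. The other strongest gene-end peaks of the members did not pass. In Th17n their 24 changes ran from -0.52 at Chac1 to 0.68 at Nupr1, where the level was low (3.43 ± 0.610 and 5.67 ± 1.42 CPM, adjusted p = 0.41). In iTreg their 23 changes ran from -0.67 at Atf4 to 0.36 at Slc3a2. The group holds enzymes of proline synthesis (Aldh18a1, 0.03 in Th17n and 0.14 in iTreg, and Pycr1, -0.04 and -0.06), the alanine aminotransferase Gpt2 (0.02 and -0.31), the glutamine carrier Slc1a5 (-0.19 and -0.16) and the translation repressor Eif4ebp1 (-0.27 and -0.21). Slc7a11, the cystine transporter, and Slc7a3, a cationic amino acid transporter, had 1 peak each, inside the gene model and low (7.36 ± 2.30 and 4.06 ± 1.82 CPM in Th17n vehicle), and neither passed in Th17n (adjusted p = 1 and 0.74) or iTreg (0.87 and 0.88). The Slc7a11 peak, and a peak of Mthfd2, cover an annotated start but do not count as gene-end peaks by the rule used here.

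The change with DFMO differed between Th17n and iTreg at 3 of 90 member peaks (3.33%), all with the higher value in Th17n, where 0.835% of all peaks differed in that direction and 0.478% in the other. For the direction with 0 member peaks, 2 had an unadjusted p under 0.05 and DESeq2 called 0. DESeq2 called 1 of the 3, and leaving out 1 library left between 1 and 5. All 3 peaks lay outside or inside genes rather than at gene ends. A peak 19182 bp outside Slc1a4 (chr11:20282426-20282998), which encodes the neutral amino acid exchanger ASCT1, rose in Th17n from 1.96, 1.69 and 4.11 CPM to 11, 13.0 and 7.81 (2.07 ± 0.44, adjusted p = 0.0013). In iTreg it held 14.8, 8.81 and 12.7 with vehicle and 7.04, 6.64 and 7.62 with DFMO (-0.71 ± 0.37, adjusted p = 0.25). The lowest group was Th17n vehicle, and the libraries of the other groups all lay between 6.64 and 14.8 CPM. The difference between the changes was 2.78 ± 0.58 (adjusted p = 0.0059), and it was lost without Th17n vehicle library 2 (0.059), as was the rise in Th17n (0.052).

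Near Nupr1, 3099 bp outside the gene (chr7:126619511-126620147), Th17n rose from 14.7, 16.5 and 16.4 CPM to 33.5, 33.3 and 34.5 (1.08 ± 0.30, adjusted p = 0.016). The libraries within each Th17n group agreed closely. In iTreg they were spread, at 17.4, 20.6 and 30.7 and 4.11, 27.5 and 15.2 (-0.53 ± 0.31, adjusted p = 0.3). The difference was 1.61 ± 0.43 (adjusted p = 0.039), with DESeq2 at 0.066 and thinned libraries at 0.28. It was kept without iTreg vehicle library 1 or iTreg DFMO library 2 and lost without any of the other 10 libraries (0.089, 0.099 and 0.12 for Th17n vehicle 1 to 3, 0.11, 0.081 and 0.085 for Th17n DFMO 1 to 3, 0.059 and 0.16 for iTreg vehicle 2 and 3, 0.13 and 0.12 for iTreg DFMO 1 and 3). The rise in Th17n was lost when thinned (0.13) and without vehicle libraries 1 (0.053), 2 (0.076) and 3 (0.082) and DFMO libraries 1 (0.076) and 3 (0.054).

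Inside Slc7a5 (chr8:121898140-121899002), Th17n held 109, 107 and 97.2 CPM with vehicle and 122, 108 and 103 with DFMO (0.13 ± 0.16, adjusted p = 0.67). In iTreg it fell from 75.7, 109 and 106 to 40.5, 80.2 and 42.2 (-0.85 ± 0.17, adjusted p = 0.00063), with vehicle library 1 below DFMO library 2. That decrease held under every alternative and left-out library. The difference was 0.98 ± 0.23 (adjusted p = 0.017), with DESeq2 at 0.052, and it was lost without Th17n vehicle libraries 1 (0.053) and 3 (0.10), Th17n DFMO library 1 (0.12), iTreg vehicle libraries 2 (0.070) and 3 (0.052) and iTreg DFMO libraries 1 (0.097) and 3 (0.15). At the Slc7a5 gene end, iTreg held 106, 91.1 and 101 and 102, 102 and 107 (0.09, adjusted p = 0.74).

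**Figure D4:**
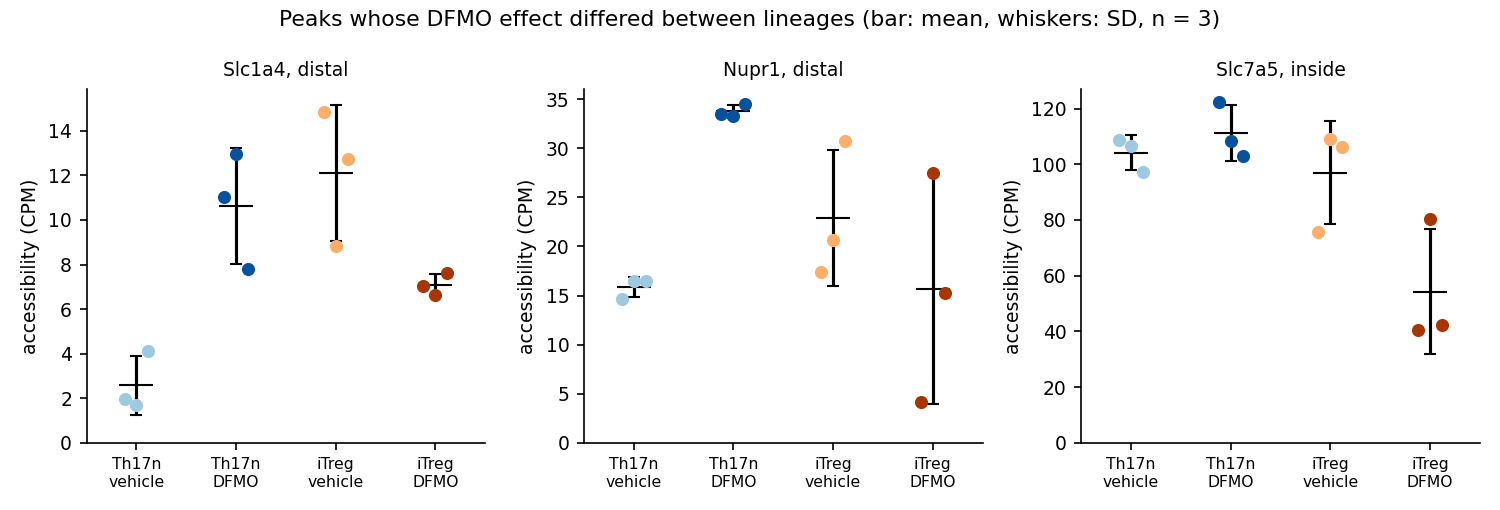
Accessibility in CPM (y axis, from 0) by library at the peaks near Slc1a4, near Nupr1 and inside Slc7a5, where the change with DFMO differed between Th17n and iTreg, with 1 point a library and bars for the group mean and SD (n = 3). At the Slc1a4 peak Th17n goes from 1.69 to 4.11 with vehicle up to 7.81 to 13.0 with DFMO, and iTreg from 8.81 to 14.8 to 6.64 to 7.62.

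Between the cell types with vehicle, 19 of 90 member peaks were higher in Th17n and 21 lower (21.1% and 23.3%), where 25.2% of all peaks were higher and 19.3% lower. Of the strongest gene-end peaks, 14 of 27 were lower in Th17n (51.9%) and 0 higher (0 at an unadjusted p under 0.05 and 0 by DESeq2, which called 11 lower), where 32.5% of all gene-end peaks were lower and 3.84% higher. Outside genes, 15 of 44 were higher (34.1%) and 4 lower (9.09%), near the 30.0% and 15.5% of all peaks outside genes. The median difference over the 27 gene-end peaks was -0.36, and over all gene-end peaks -0.33. Gene-end peaks took 46.0% ± 0.495 of all counts in Th17n vehicle and 55.0% ± 1.19 in iTreg vehicle (SD, n = 3), and the part of this share in the member values was not tested. The count of lower member peaks was 11 without Th17n vehicle library 2 and 9 when thinned. That of lower gene-end peaks was 8 of 27 without Th17n vehicle library 2 (29.6%, against 21.6% of all gene-end peaks in that fit) and 6 of 26 when thinned (23.1%, against 14%).

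Higher in Th17n were peaks at or around kinases, an effector, transcription factors, a synthesis enzyme and transporters. Of the Eif2ak3 peaks, 1 outside the gene (1.03, adjusted p = 0.012) and 1 inside it (0.41, adjusted p = 0.018) were higher. Another inside it was lower (-1.04, adjusted p = 0.028). Inside Eif2ak4 a peak (chr2:118452871-118453348) held 11.8, 9.54 and 10.3 CPM in Th17n and 0.511, 0.645 and 1.42 in iTreg (3.34 ± 0.63, adjusted p = 5.5e-06), and a second one inside the gene differed by 2.49 ± 0.48 (adjusted p = 1.5e-05). Of the 6 Ddit4 peaks, 5 were higher in Th17n, by 1.06 to 1.93, and the peak 2.06 kb upstream was not (-0.46, adjusted p = 0.12). The distal Slc38a2 peak held 24.5, 30.9 and 26.4 and 1.02, 2.15 and 7.88 (2.65 ± 0.41, adjusted p = 3.1e-07). Peaks 4970 bp outside Slc3a2 (2.45 ± 0.39, adjusted p = 6.6e-07), 28169 bp outside Cebpb (2.15 ± 0.34, adjusted p = 7.7e-07) and 40565 bp outside Asns (2.86 ± 0.60, adjusted p = 2.9e-05) were higher too. At the peak 6587 bp outside Atf3 the difference was 1.35 ± 0.29 with vehicle (adjusted p = 0.00017) and 2.69 ± 0.39 with DFMO (adjusted p = 8e-08).

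The 14 gene ends lower in Th17n, and so higher in iTreg, were spread over the roles: 5 of synthesis enzymes (Psat1, Phgdh, Shmt2, Pck2 and Pycr1), 3 of transporters (Slc7a5, Slc1a5 and Slc1a4), 3 of the kinases and their control (Eif2ak4, Ppp1r15a and Nupr1), 2 of transcription factors (Ddit3 and Cebpb) and Chac1. Shmt2 held 10.8, 13.5 and 20.0 CPM in Th17n and 27.6, 32.5 and 32.8 in iTreg (-1.09 ± 0.24, adjusted p = 0.00023), and Psat1 47.0, 76.3 and 71.9 and 105, 98.0 and 102 (-0.64 ± 0.14, adjusted p = 0.00016). Neither pair of groups overlapped. A peak inside Phgdh (chr3:98335748-98336318) held 19.6, 16.2 and 22.6 and 47.6, 47.9 and 33.8 with vehicle (-1.23 ± 0.23, adjusted p = 1.9e-05), and the difference was -1.83 ± 0.24 with DFMO (adjusted p = 3.2e-08). Synthesis enzymes as a group had 7 lower peaks and 1 higher of 20 (35.0% and 5.0%), where 19.3% of all peaks and 32.5% of all gene-end peaks were lower. Chac1 (-0.68, adjusted p = 0.00087), the gene end of Slc7a5 (-0.60, adjusted p = 0.00025) and that of Slc1a4 (-0.53, adjusted p = 0.00054) were also lower. The peak 4859 bp outside Sesn2 was lower (-0.97, adjusted p = 5.9e-07) and lies at a transfer RNA gene.

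**Figure D5:**
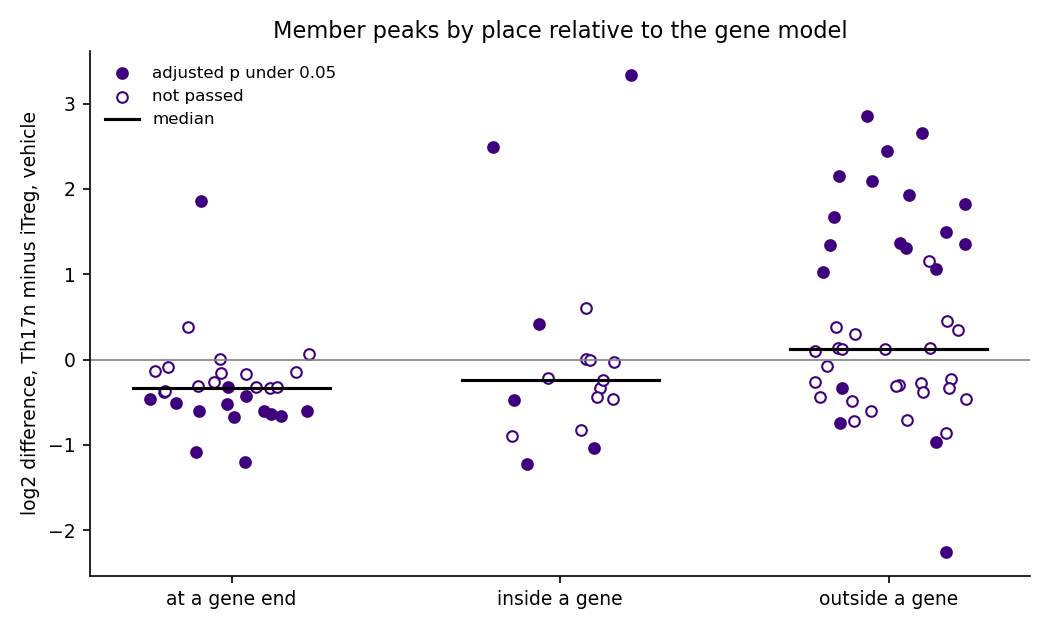
Log2 difference between Th17n and iTreg with vehicle (y axis) of each tested member peak, by place of the peak (x axis). Points are peaks, and filled points passed the test. At gene ends 14 of the 29 points are filled and below 0 and 1 is filled and above it. Outside genes 15 of the 44 are filled and above 0 and 4 filled and below.

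With DFMO the counts between the cell types were 18 higher and 16 lower (20.0% and 17.8%), where 22.5% of all peaks were higher and 14.7% lower. At gene ends 8 of 27 were lower (29.6%), and 1 of all 29 was higher, where 25% of all gene-end peaks were lower and 3.88% higher. The count of lower peaks was 10 without Th17n DFMO library 2 and 7 when thinned, and that of higher peaks was 8 when thinned. Lower gene-end peaks numbered 4 of 27 with library totals as the scaling, with the vehicle groups left out of the fit, and without Th17n DFMO library 1 or 2 or iTreg DFMO library 2 or 3. Those 4 made 14.8%, where 17.2% to 23.8% of all gene-end peaks were lower in the same fits. Lower ones numbered 13 without iTreg DFMO library 1 (48.1%, against 24.8% of all gene-end peaks). When thinned they numbered 3 of 26 (11.5%, against 13.8%). The vehicle and DFMO comparisons share no library, and the difference between them is the one tested above.

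Other genes around the pathway, taken from lists of names, were counted in the same fit, to be read beside the shares of all peaks given above (4.5% higher and 4.28% lower in Th17n, 3.84% and 4.72% in iTreg). Genes of eIF2 and its control had 4 higher and 0 lower of 29 peaks with DFMO in Th17n and 2 higher and 0 lower in iTreg (medians 0.31 and 0.11). For the 0 lower peaks, the counts at an unadjusted p under 0.05 were 0 in Th17n and 2 in iTreg, and DESeq2 called 0 in both. A peak assigned to Impact, which restrains GCN2, rose in both, from 31.2 ± 4.13 to 53.8 ± 3.51 CPM in Th17n (0.77 ± 0.18, adjusted p = 0.0038) and from 37.7 ± 7.58 to 71.4 ± 3.64 in iTreg (0.96 ± 0.17, adjusted p = 0.00017). Both calls held under every alternative and left-out library. The other 3 calls in Th17n, 1 at Eif2b3 and 2 at Eif2s3x, were all lost without vehicle library 3, DFMO library 1 or DFMO library 3, which left 1 higher peak each, and 2 were left without vehicle library 2 or DFMO library 2 and 1 when thinned. Other stress-responsive genes had 2 higher and 5 lower of 69 in Th17n and 1 higher and 7 lower in iTreg. A peak assigned to Sesn1, another sestrin, fell in both (-1.58 ± 0.40, adjusted p = 0.0068, and -1.90 ± 0.39, adjusted p = 0.00085, the latter 0.089 when thinned). Unfolded protein response genes had 0 higher (3 at an unadjusted p under 0.05, 0 by DESeq2) and 1 lower of 30 in Th17n and 1 higher and 2 lower in iTreg. Other amino acid and one-carbon genes had 2 higher and 3 lower of 73 in Th17n and 2 of each in iTreg. The shares of the amino acid list (2.74% to 4.11%) were below those of all peaks in both directions and cell types.

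A few member starts lie in peaks that touch another gene as closely and were given to that gene. Counting them to the members, the Psph start, shared with Cct6a, was higher with DFMO in Th17n (79.5 ± 3.13 and 103 ± 8.83 CPM; 0.39 ± 0.13, adjusted p = 0.039), and the count of higher peaks became 4. Psph makes serine from phosphoserine. Conversely, the gene-end peaks of Ppp1r15a, Ddit3 and Cebpg counted here touch Plekha4, Mbd6 and Gm45095 as well. The peak at the Atf5 start held 92.8 ± 8.55 and 101 ± 14.0 CPM in Th17n and 117 ± 7.13 and 126 ± 6.78 in iTreg with vehicle and DFMO (adjusted p = 0.44 and 0.58).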

How the data were processed

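ATAC-seq counts were deposited for 12 libraries, 3 animals in each of 4 groups, as whole-number counts per peak that the authors did not scale, per the file headers and the values. Trimmomatic, FastQC, Bowtie2, MACS2 and mm10 are named per the submitters' processing notes. Neither versions, settings nor whether peaks were called per sample or pooled is stated in the sources used here. Peak coordinates are as deposited. Each peak went to the closest protein-coding model of RefSeq GRCm38.p6, the same build, if within 100 kb. A peak touching several models went to the one with an end nearest its middle. edgeR 4.0.16 (quasi-likelihood test, TMM factors, filterByExpr with a minimum count of 10, R 4.3.3) was fitted to all libraries as 4 group means, with Benjamini-Hochberg adjustment over the 43726 tested peaks and a threshold of 0.05. No member was tested alone. CPM is not TMM-scaled. The fit was tested on simulated data. The animal numbers are animals per the labels. Residuals of 18 same-animal pairs correlated at -0.0549 to 0.0747. The fit with the animal as a block is an alternative, as are DESeq2 1.42.0, other scalings and filters, thinning to the smallest library, fits of the compared groups alone, narrower assignment and leaving out each library. Members and lists were chosen with earlier results of these data known. Named peaks were those past the threshold, up to 12 a direction, the strongest gene-end peak of each member, and those that differed between cell types. Total counts set the precision, 1020937 in the shallowest library (Th17n vehicle 1).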

Additional observations from a re-analysis of the deposited data

Results flagged for a closer look

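The change with DFMO differed between Th17n and iTreg at 3 member peaks by the interaction term of the edgeR model. The signed log2 change in Th17n minus that in iTreg was 2.78 near Slc1a4 (adjusted p = 0.0059), 1.61 near Nupr1 (adjusted p = 0.039) and 0.98 inside Slc7a5 (adjusted p = 0.017). At the Slc1a4 and Nupr1 peaks the Th17n change passed and the iTreg change did not. At the Slc7a5 peak the iTreg change passed and the Th17n change did not. Over the alternatives and left-out libraries, the highest adjusted p was 0.059 at Slc1a4 (without Th17n vehicle library 2), 0.28 at Nupr1 (thinned) and 0.15 at Slc7a5 (without iTreg DFMO library 3).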

How the results depend on the processing

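No call of a member peak changed direction under any alternative run. Of 13 calls with DFMO in Th17n, 7 were kept under every alternative setting, 4 without any single library and 3 under both. The same numbers were 5, 5 and 5 of 8 in iTreg and 1, 0 and 0 of 3 for the interaction. Between cell types they were 27, 23 and 22 of 40 with vehicle and 19, 15 and 13 of 34 with DFMO. A call counted as kept when no fit that tested its peak lost it. Some peaks were filtered out of some fits for low counts, such as the Trib3 peak in iTreg, tested in 6 of 8 settings. With every library thinned to the smallest, lower peaks numbered 6 instead of 10 in Th17n and 4 instead of 8 in iTreg, 9 instead of 21 between cell types with vehicle and 7 instead of 16 with DFMO, where higher peaks numbered 8 instead of 18. The share of all gene-end peaks called lower went from 2.05% to 1.49% in Th17n and from 3.63% to 1.54% in iTreg. Between cell types it went from 32.5% to 14% with vehicle and from 25% to 13.8% with DFMO. These shares are of gene-end peaks alone, while the counts include member peaks inside and outside genes. DESeq2 called 1 interaction peak instead of 3. Counting peaks within 10 kb of the gene alone gave 6 lower peaks in Th17n, 8 higher between cell types with vehicle and 10 higher with DFMO. Counting gene-end peaks alone gave 1 higher and 2 lower in Th17n, 4 lower in iTreg, 1 higher with vehicle, 1 higher and 8 lower with DFMO and 0 for the interaction. These last settings count fewer peaks by construction. Leaving out 1 library gave 0 to 3 higher and 5 to 10 lower peaks in Th17n, 0 to 3 higher and 5 to 11 lower in iTreg, 14 to 20 higher and 11 to 22 lower between cell types with vehicle, 12 to 17 higher and 10 to 21 lower with DFMO, and 1 to 5 for the interaction. The cause of these shifts was not tested. The fit with the animal as a block gave 3 higher and 10 lower in Th17n, 0 and 8 in iTreg, 3 and 0 for the interaction, 19 and 21 between cell types with vehicle and 18 and 17 with DFMO, and ended no member call with DFMO. It ended 1 of the 4 eIF2 calls in Th17n, at Eif2s3x (adjusted p = 0.06), and the call between cell types with vehicle 9521 bp outside Slc38a2 (adjusted p = 0.058). Of 12 libraries, 5 correlated best with one of their own animal. Counting shared start peaks to the members, an alternative chosen after seeing the data, gave 4 higher peaks in Th17n and 24 lower between cell types with vehicle.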
